A study of Homo sapiens with 27 samples.

Results

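The comparison described here is the mRNA of THP-1 macrophages exposed to lipopolysaccharide (LPS) together with dexamethasone (Dex) against the mRNA of the same line given vehicle, that is, what differed from rest while an inflammatory stimulus and a glucocorticoid acted together. It rests on 8 of the 27 libraries of the series, 4 labelled LPS+Dex and 4 labelled vehicle, taken by their labels from the 12 RNA-seq libraries. The other 15 libraries are ribosome footprints and were not used. THP-1 is a human monocytic leukaemia line, so all libraries come from 1 cell line. In every group the cells had been differentiated towards macrophages with 10 ng/ml phorbol 12-myristate 13-acetate (PMA) for 24 h and then moved to fresh medium, so PMA exposure is shared by both sides of the comparison. The vehicle cells then received 0.1% ethanol/PBS for 3 h, and the LPS+Dex cells received 100 ng/ml LPS and 1 µM Dex for 3 h. The 4 RNA-seq libraries from cells given 100 ng/ml LPS alone for 3 h give a further level beside the 2 that were compared, and they also enter the gene filter, the scaling and the estimate of the spread in the shared fit. No group received Dex alone, so in a gene that differs from vehicle the shares of LPS and Dex cannot be told apart from these 8 libraries. The labels do not say whether the replicates were separate cultures, and p-values therefore measure only the spread between these samples, which may be technical.

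LPS, a component of the outer membrane of Gram-negative bacteria, is bound by CD14 and the TLR4 receptor complex. The adaptor MyD88 then leads to NF-kB and MAP kinases, and the adaptor TRIF (TICAM1) leads to interferon regulatory factors, interferon beta and, through its receptor, the interferon-stimulated genes. Dex binds the glucocorticoid receptor (NR3C1), which moves to the nucleus, turns on genes such as FKBP5, TSC22D3 and DUSP1, and interferes with NF-kB and AP-1 at many cytokine genes, the basis of the anti-inflammatory use of glucocorticoids.

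The vehicle libraries held 21764011 to 30665116 counts, the LPS libraries 20855210 to 24875512 and the LPS+Dex libraries 18966683 to 21676878, with 15430 to 16354 genes detected in each. Libraries of 1 group correlated over genes at r = 0.9813 to 0.996 for vehicle and at r = 0.9931 to 0.9974 for LPS+Dex. The 4 vehicle libraries were not alike. Cytosolic ribosomal protein mRNAs summed to 30110 and 31410 CPM (counts scaled to a common library size, here with TMM factors) in vehicle libraries 1 and 2. In vehicle libraries 3 and 4 they summed to 20800 and 21910 CPM. In LPS+Dex libraries 1 to 4 the sums were 33500, 37270, 31500 and 37730 CPM. Some results that shift with the division of the vehicle libraries are also given without 1 pair or the other. In the LPS group, library 4 stood apart in several Dex-responsive genes, with FKBP5 at 160 CPM against 52.9 to 71.8 CPM in the other LPS libraries, and it is part of the shared fit behind the p-values. All 14 monocyte and macrophage markers were above 1 CPM in at least 1 library. Of these markers 6 were lower with LPS+Dex, 4 of them at least 2-fold, among them CD14 (35.4 ± 1.17 to 9.5 ± 2.68 CPM, mean ± SD, n = 4), and 1 was higher. Their summed level was 4431 to 4758 CPM with vehicle, 3352 to 3632 CPM with LPS and 3497 to 3563 CPM with LPS+Dex, while CD68 was at 590 ± 37.7 CPM with vehicle and 564 ± 13.7 CPM with LPS+Dex. Of the markers of other cell types, 7 of 8 for T cells, 4 of 5 for B cells, 4 of 5 for NK cells, 5 of 5 for erythroid cells and 5 of 5 for epithelial cells stayed under 1 CPM in every library, as did 4 of 6 for fibroblasts, 4 of 5 for neutrophil granules, 2 of 5 for dendritic cells and 1 of 4 for endothelium. The part that other cell types might play in any result was not tested.

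Of 13327 genes tested, 8021 (60.2%) differed between LPS+Dex and vehicle at an adjusted p under 0.05 in edgeR's quasi-likelihood test with Benjamini-Hochberg adjustment. Of all genes tested, 29.2% (3893) were higher with LPS+Dex and 31% (4128) were lower. Many differences were small, and 3259 of the called genes (40.6%) differed by less than 1.5-fold. At least 2-fold, 1103 genes were higher (8.28% of those tested) and 1492 were lower (11.2%). Among the largest differences the balance turned the other way, with 520 genes at least 4-fold higher against 326 at least 4-fold lower, and 191 at least 10-fold higher against 52 at least 10-fold lower. The median log2 fold change over all genes tested was -0.03, and the middle 90% of genes lay between -1.52 and 1.62. In 6985 genes (52.4%) the 4 vehicle and 4 LPS+Dex libraries did not overlap. These are the backgrounds against which each gene list below is to be read. Because RNA was pooled from whole cultures, fewer cells of a kind and less RNA per cell cannot be told apart. The direction split depended on scaling: of the called genes 48.5% were higher under TMM, 36.9% under upper-quartile scaling and 28.7% when scaled to the library total, where the median of all genes moved to -0.25.

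**Figure D1:**
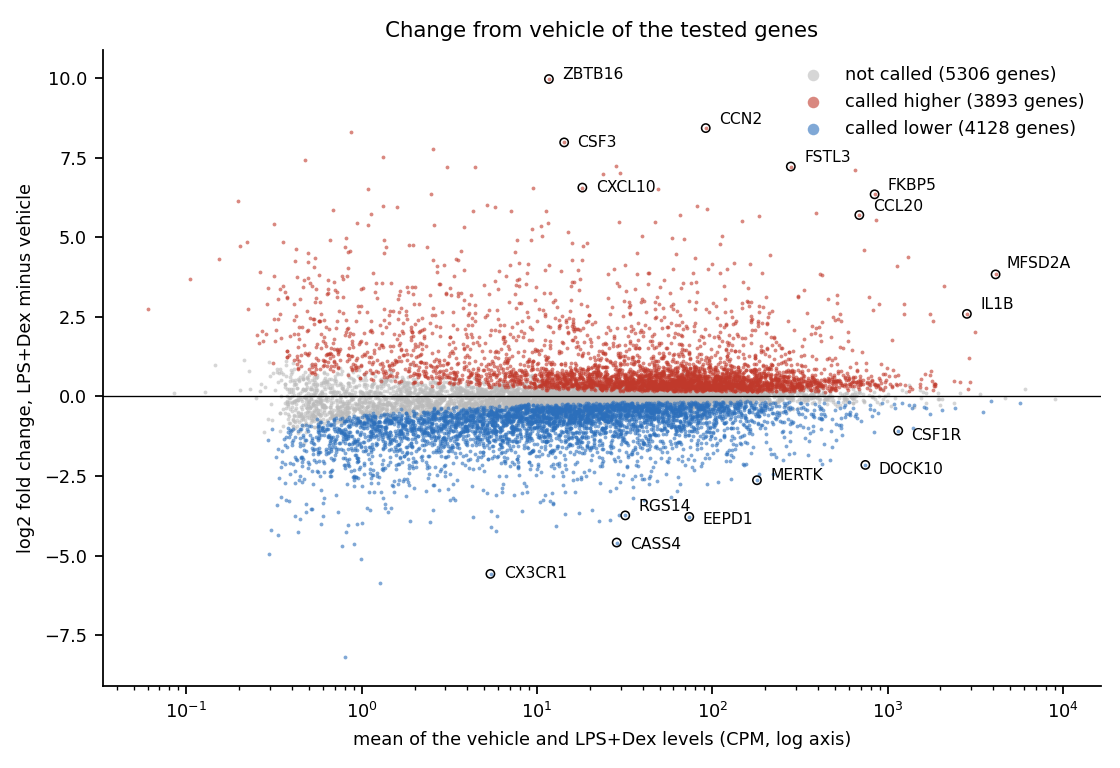
Log2 fold change of LPS+Dex over vehicle (vertical axis) against the mean level in CPM on a log axis (horizontal axis) for the 13327 genes tested, 1 point a gene, with called genes coloured by direction. The 3893 higher and 4128 lower genes lie on either side of 0, and the largest rises reach further from 0 than the largest falls.

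Glucocorticoid-responsive genes with low levels in vehicle were among those furthest from rest. ZBTB16, a zinc finger transcription factor and long-known glucocorticoid target (chr11:114059711-114256770 in GRCh38.p14), had 0, 2, 0 and 0 counts in the vehicle libraries and 518, 468, 439 and 388 counts in the LPS+Dex libraries, at a mean of 23.4 ± 2.12 CPM. Its fitted log2 fold change of 9.96 ± 0.82 (SE, as for all log2 values below) depends on the prior count and is no measure of size. LPS libraries 1 to 3 held 0 to 0.052 CPM of it and library 4 held 1.51 CPM. FKBP5 (chr6:35573590-35728583), a co-chaperone that lowers the receptor's affinity for its ligand, stood at 16.2, 14.1, 24.1 and 27.1 CPM with vehicle and at 1842, 1575, 1810 and 1430 CPM with LPS+Dex. This was 81.3-fold higher (log2 6.34 ± 0.36, adjusted p = 3e-09), with no overlap between the groups. FSTL3 (chr19:676392-683385), a secreted binder of activin, rose 149-fold, from 3.98, 3.55, 3.28 and 4.17 CPM to 527, 545, 566 and 589 CPM (log2 7.22 ± 0.28). SPRY1, an inhibitor of receptor tyrosine kinase signalling, went from 0.358 ± 0.162 to 56.1 ± 5.07 CPM (log2 7.24 ± 0.34). In these genes every LPS+Dex library lay far above every vehicle library and above the mean with LPS alone. That mean was 88.7 CPM for FKBP5, 26.5 CPM for FSTL3 and 1.08 CPM for SPRY1. ZBTB16, FSTL3 and SPRY1 are among the largest rises, which were picked from genes whose vehicle and LPS+Dex libraries did not overlap.

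Among 48 tested members of a list of glucocorticoid receptor targets, 34 were higher and 6 lower than vehicle, and the median log2 fold change was 1.39. TSC22D3, which encodes GILZ, a leucine zipper protein that binds NF-kB and AP-1, was at 9.34, 9.21, 11 and 10 CPM with vehicle and at 142, 148, 143 and 148 CPM with LPS+Dex. It rose 14.6-fold (log2 3.87 ± 0.17, adjusted p = 1.6e-10) and stood at 8.33 CPM with LPS alone. DUSP1 (chr5:172768096-172771195), the phosphatase that inactivates p38 and JNK, rose 21.6-fold, from 21.7, 20.6, 18.2 and 15.2 CPM to 408, 405, 420 and 399 CPM, with 71.2 CPM in LPS. The clock gene PER1 rose 6.25-fold, from 51 ± 1.4 to 318 ± 9.93 CPM, and KLF9, a repressor that dampens the glucocorticoid response, 2.56-fold, from 10.8 ± 3.82 to 28 ± 5.26 CPM. Also higher were DDIT4, an inhibitor of mTORC1 (9.9-fold), CEBPD, a C/EBP transcription factor (8-fold), FOXO1 (7.58-fold) and RHOB, a small GTPase (7.05-fold). The list was not uniform. IL1RN, the gene for the interleukin-1 receptor antagonist, fell 1.96-fold, and the efferocytosis receptor MERTK 6.18-fold, and both are described further on. The kinase gene SGK1 fell from 286 ± 25.5 to 158 ± 10.7 CPM (log2 -0.86 ± 0.08), and ANXA1, which encodes the anti-inflammatory protein annexin A1, was at 176 ± 5.48 and 177 ± 11.6 CPM (log2 0.02 ± 0.08, 95% interval -0.15 to 0.18). NFKBIA, TNFAIP3, IRAK3 and TLR2 in this list are also induced through NF-kB and recur below.

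Metallothioneins are small cysteine-rich proteins that bind zinc and copper, and their genes respond to metals and glucocorticoids. They were higher in 6 of 6 tested members, with a median log2 fold change of 2.55. Of 11 listed members only these 6 passed the filter on low counts, which a gene could pass through the LPS+Dex libraries alone. MT2A (chr16:56608584-56609497) stood at 2.85, 3.39, 1.83 and 2.21 CPM with vehicle, 12.3 CPM with LPS and 140, 163, 156 and 183 CPM with LPS+Dex, a 63.4-fold rise (log2 5.99 ± 0.17). MT1E rose 9.01-fold to 7.53 ± 1.45 CPM, MT1X 3.83-fold to 8.47 ± 1.1 CPM and MT1F 2.1-fold to 2.91 ± 0.229 CPM. The members are close paralogs, and how reads matching several of them were counted is not given in the sources used here, so the split between them is uncertain.

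The mRNA of the receptor itself was at 46.4, 36.1, 93.7 and 71.6 CPM in the vehicle libraries and at 65.4, 47.7, 62.3 and 48.3 CPM with LPS+Dex. NR3C1 was not called (log2 -0.15 ± 0.25, adjusted p = 0.62, 95% interval -0.69 to 0.39), and the vehicle spread decided its direction: without vehicle libraries 1 and 2 it was lower (log2 -0.56, adjusted p = 0.022), and without libraries 3 and 4 its estimate was positive (log2 0.43, adjusted p = 0.082). Of 24 tested genes for the receptor, its chaperones and its cofactors, 10 were higher and 4 lower. The share called, 58.3%, was near the 60.2% of all genes tested. HSP90AB1, the constitutive HSP90 that holds the receptor ready for ligand, rose 1.32-fold, the coactivator NCOA2 fell 2.08-fold with overlapping libraries and was no longer called without vehicle library 3 (log2 -0.72, adjusted p = 0.051), and the corepressor NCOR1 fell 1.64-fold. The number of genes in this list called lower was 1 without vehicle libraries 3 and 4 and 8 without libraries 1 and 2, and with library total scaling 4 were higher and 7 lower.

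**Figure D2:**
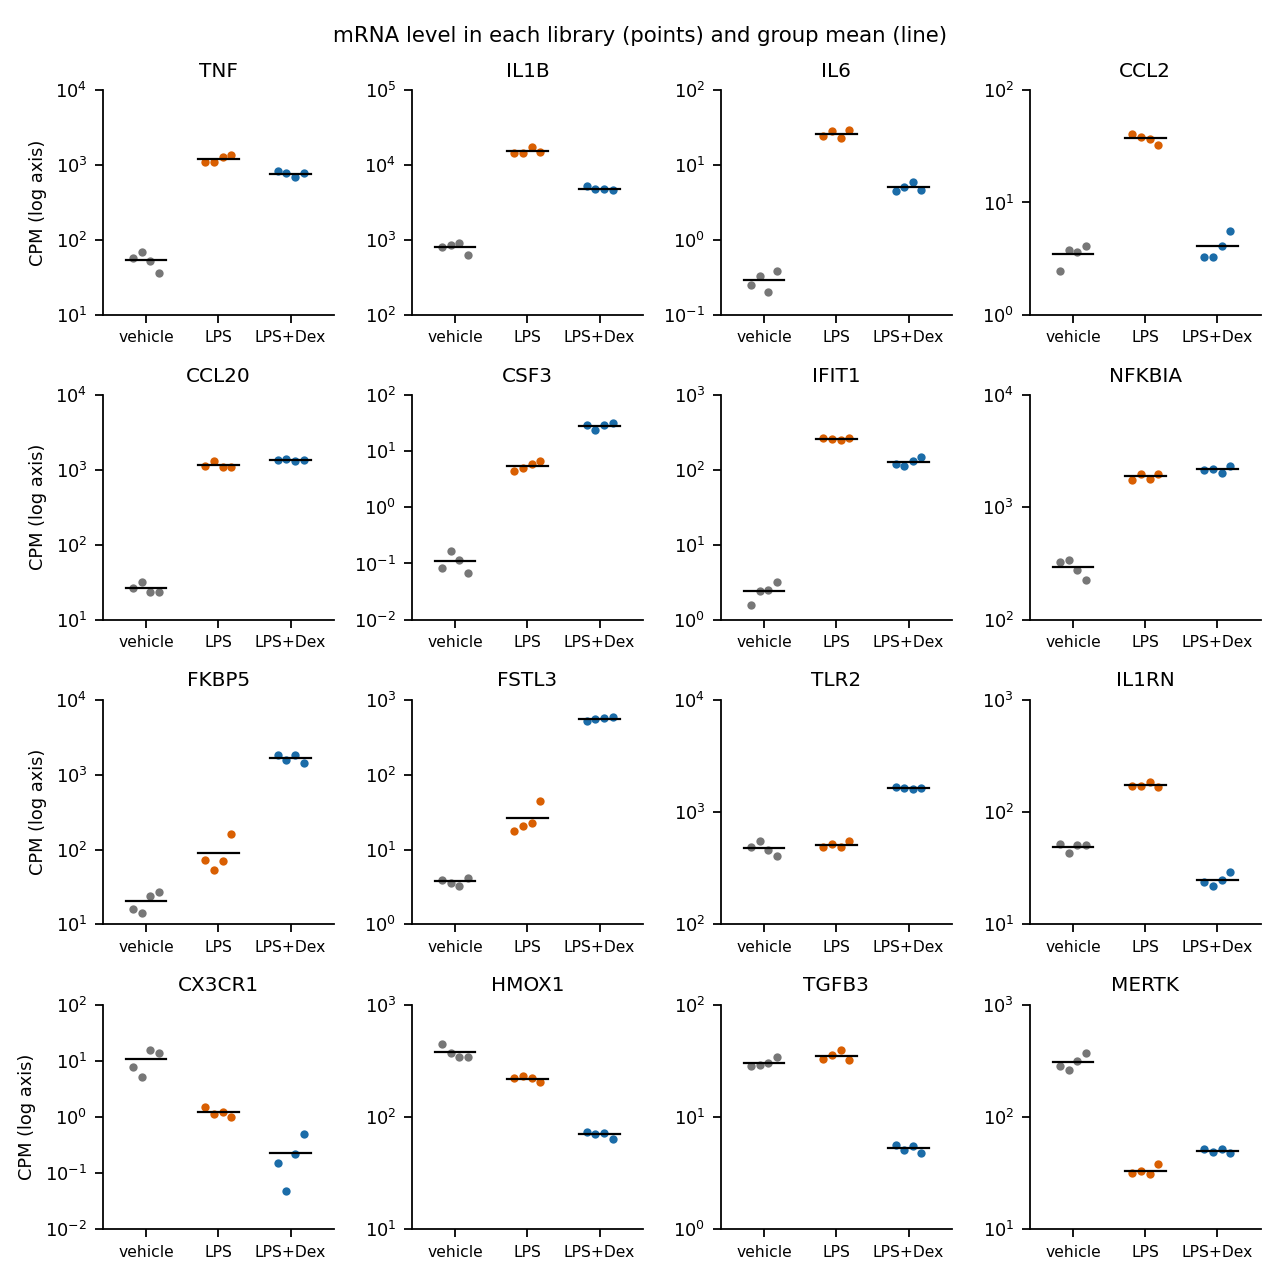
Level of 16 genes in each library, in CPM on a log axis, with the 4 vehicle, 4 LPS and 4 LPS+Dex libraries as separate points. The 4 LPS+Dex libraries of TNF, CCL20, FKBP5 and FSTL3 lie above all vehicle libraries, those of IL1RN, CX3CR1, HMOX1, TGFB3 and MERTK lie below them, and those of CCL2 overlap them.

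Most cytokine mRNAs tested were above rest with LPS+Dex. Of 32 tested cytokine genes 21 were higher and 5 lower than vehicle, 19 of them at least 2-fold higher, and the median log2 fold change was 1.69. TNF (chr6:31575565-31578336), the founding member of its cytokine family, stood at 56.6, 68.7, 52 and 36.2 CPM with vehicle and at 821, 783, 693 and 783 CPM with LPS+Dex, 14.4-fold higher (log2 3.85 ± 0.17, adjusted p = 1.7e-10). Its level with LPS alone was 1208 CPM. IL1B, the pyrogenic cytokine processed by the inflammasome, rose 6.03-fold, from 811, 858, 917 and 635 CPM to 5189, 4811, 4815 and 4611 CPM, beside 15410 CPM with LPS. IL6 was scarce in all groups but rose 17.2-fold, from 0.291 ± 0.0788 to 5.05 ± 0.678 CPM, with 26.1 CPM in LPS. In each of these 3 genes the vehicle and LPS+Dex libraries did not overlap, and the LPS level was the highest of the 3.

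The mean level of a few cytokine mRNAs was higher with LPS+Dex than with LPS alone, or close to it. CSF3, the gene for the neutrophil growth factor G-CSF, had 2, 4, 4 and 2 counts in the vehicle libraries and 572, 506, 532 and 586 with LPS+Dex, at a mean of 28.4 ± 3.19 CPM beside 5.48 CPM with LPS. IL15, a growth factor for NK and memory T cells, was at 0.635 ± 0.0997, 9.7 and 20.7 ± 4.5 CPM in vehicle, LPS and LPS+Dex. CSF1, the macrophage growth factor, was at 31.2 ± 5.09, 52 and 97.4 ± 2.04 CPM. EBI3, the shared subunit of IL-27 and IL-35, rose 8.34-fold to 812 ± 46.3 CPM, with 836 CPM in LPS.

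Other cytokine mRNAs were not called, rose from low levels or were below rest. CSF2, the gene for GM-CSF, was at 0.964, 0.826, 0.957 and 0.517 CPM with vehicle and at 0.906, 0.622, 1.14 and 2.07 CPM with LPS+Dex (log2 0.52 ± 0.35, adjusted p = 0.22), with 9.08 CPM in LPS, and LIF was not called either (log2 0.74 ± 0.36, adjusted p = 0.087). The vehicle and LPS+Dex libraries of both genes overlapped, and the 95% interval for the log2 fold change of CSF2 ran from -0.24 to 1.28. IL1A, the cell-bound form of interleukin-1, rose 1.76-fold to 3.7 ± 0.558 CPM, against 40 CPM with LPS. IL12B, the p40 subunit of IL-12 and IL-23, rose 1.93-fold with overlapping libraries (adjusted p = 0.012), a call that was lost without LPS+Dex library 1 (log2 0.76, adjusted p = 0.051) and without vehicle libraries 1 and 2 (log2 0.63, adjusted p = 0.095). IL10, the anti-inflammatory cytokine, rose 4.46-fold, from 0.305 ± 0.15 to 1.35 ± 0.277 CPM, with 3.36 CPM in LPS. Below rest were IL1RN, at 52, 43.3, 50.5 and 51.2 CPM with vehicle and 24, 21.9, 25 and 29.5 CPM with LPS+Dex (log2 -0.97 ± 0.09) against 172 CPM with LPS, TNFSF14, the gene for LIGHT (log2 -2.71 ± 0.22), IL16, a CD4 ligand (log2 -2.32 ± 0.16), OSM (log2 -1.83 ± 0.27) and IL18 (log2 -0.61 ± 0.18).

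Chemokines, the chemoattractants of leukocytes, showed the highest median after the metallothioneins. Of 27 tested chemokine genes 22 were higher, 20 of them at least 2-fold, and none was lower, with a median log2 fold change of 2.5. CCL20 (chr2:227813842-227817556), which attracts CCR6-bearing cells, stood at 26.2, 31.8, 23.3 and 23.3 CPM with vehicle and 1352, 1389, 1300 and 1368 CPM with LPS+Dex, 51.8-fold higher (log2 5.70 ± 0.11, adjusted p = 1.5e-13), beside 1151 CPM with LPS. CCL3 (chr17:36088256-36090143) and CCL4, which attract monocytes and T cells, rose 20.7-fold to 2501 ± 165 CPM and 54.5-fold to 761 ± 72.5 CPM. Their near-identical copies CCL3L3 and CCL4L2 share reads with them, and the split is uncertain. CXCL8, the gene for interleukin-8, rose 5.21-fold, from 574, 676, 624 and 456 CPM to 3418, 3009, 2991 and 2716 CPM, with 7171 CPM in LPS. CXCL10, a CXCR3 ligand induced by NF-kB and interferon, rose 94.1-fold, from 0.371 ± 0.0571 to 35.9 ± 6.75 CPM, with 112 CPM in LPS. CCL5 rose 5.64-fold to 831 ± 80.6 CPM. CCL2 (chr17:34255285-34257203), the monocyte attractant MCP-1, was the exception among the well-known members. It stood at 2.47, 3.8, 3.6 and 4.14 CPM with vehicle and 3.27, 3.25, 4.12 and 5.61 CPM with LPS+Dex (log2 0.20 ± 0.19, adjusted p = 0.37, 95% interval -0.20 to 0.61), with 37.2 CPM in LPS, and its estimate was -0.01 when scaled to the library total. CXCL16, CCL24, CXCL5 and CXCL13 were also not called.

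**Figure D3:**
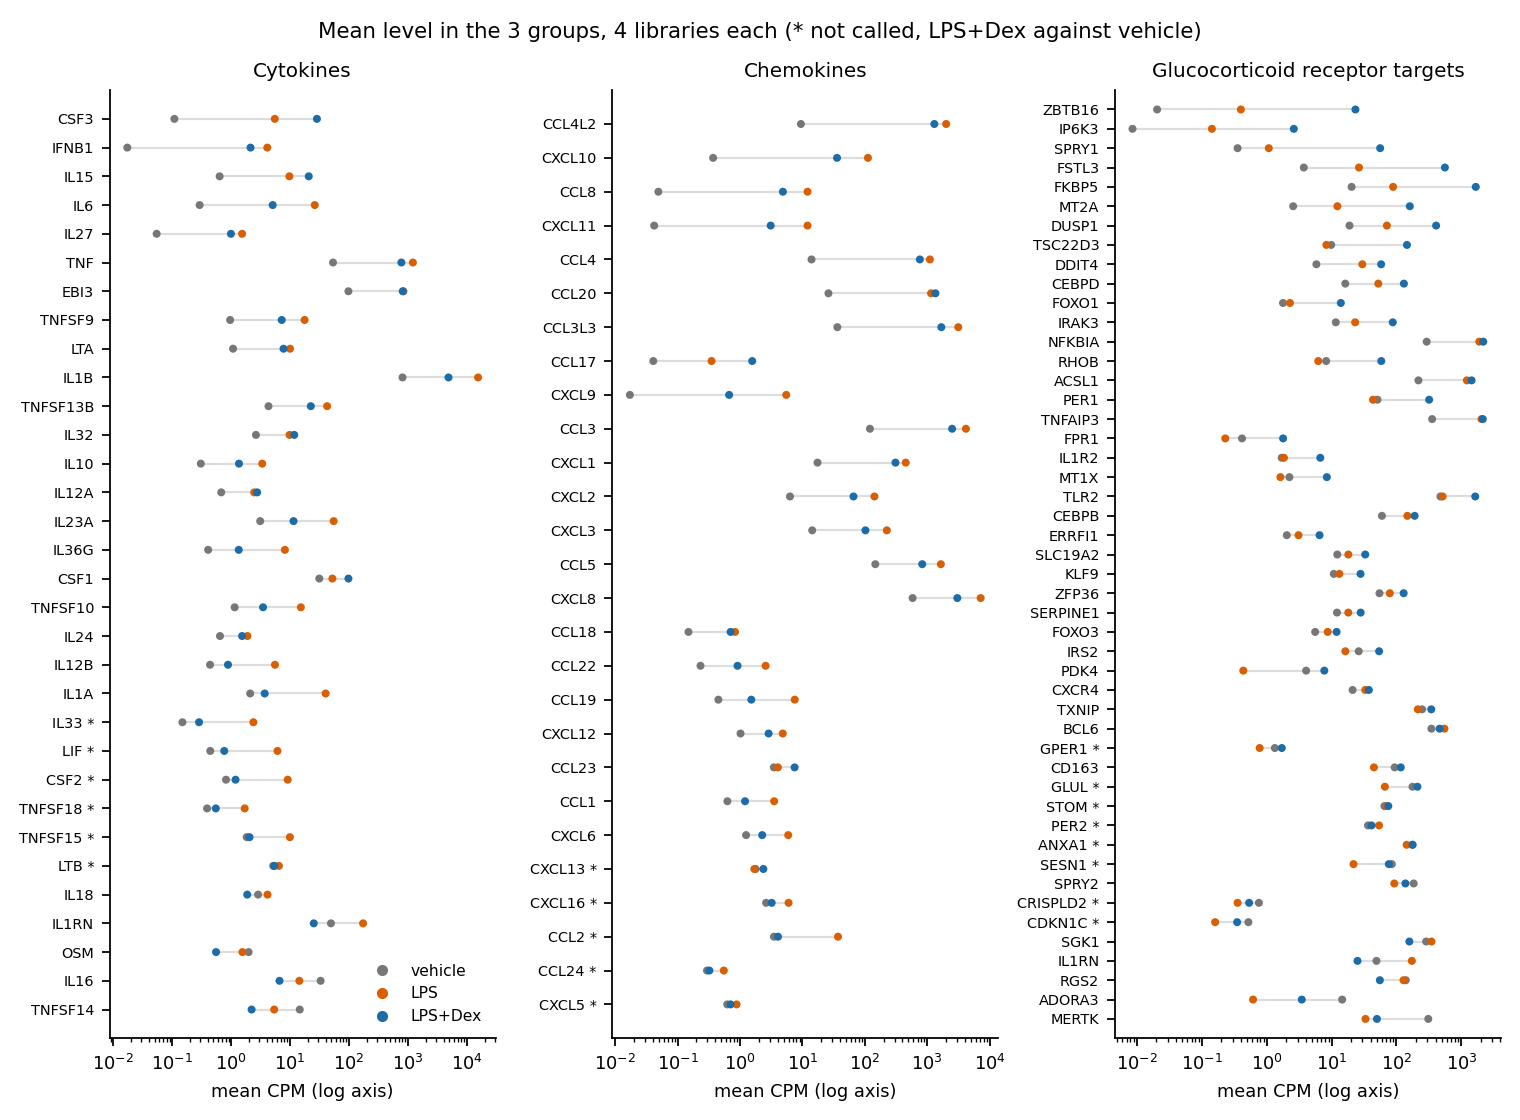
Mean level in CPM on a log axis of cytokines, chemokines and glucocorticoid receptor targets with vehicle, LPS and LPS+Dex (n = 4 libraries each), with an asterisk at genes not called in LPS+Dex against vehicle. TNF, IL1B, IL6 and CXCL8 lie between vehicle and LPS and CCL2 and CSF2 near vehicle, while FKBP5, FSTL3 and ZBTB16 are highest with LPS+Dex.

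The bases before the start of 3 of these chemokine genes are shown because they carry a shared NF-kB site, and that of CXCL10 because it holds 2 kinds of site. Promoter windows are the 250 bases before the gene's start in RefSeq (GRCh38.p14), written in the direction of transcription, and were found for 10707 of 13238 tested genes with a symbol. Capitals mark matches to the 10-base kB consensus and, in CXCL10, also to the core of the interferon-stimulated response element (ISRE), GAAANNGAAA, on either strand. The windows are chr4:73869143-73869392 (plus strand) for CXCL1, chr4:74099196-74099445 (minus strand) for CXCL2, chr4:74038690-74038939 (minus strand) for CXCL3 and chr4:76023498-76023747 (minus strand) for CXCL10.
CXCL1: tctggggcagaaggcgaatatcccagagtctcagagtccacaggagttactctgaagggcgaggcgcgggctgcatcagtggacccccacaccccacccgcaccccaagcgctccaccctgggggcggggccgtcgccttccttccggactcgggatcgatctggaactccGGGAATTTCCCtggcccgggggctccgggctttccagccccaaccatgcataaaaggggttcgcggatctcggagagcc
CXCL2: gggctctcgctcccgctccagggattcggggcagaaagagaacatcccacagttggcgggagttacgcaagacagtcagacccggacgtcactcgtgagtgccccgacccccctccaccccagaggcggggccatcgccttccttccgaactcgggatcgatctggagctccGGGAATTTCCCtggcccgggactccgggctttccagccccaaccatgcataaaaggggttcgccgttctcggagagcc
CXCL3: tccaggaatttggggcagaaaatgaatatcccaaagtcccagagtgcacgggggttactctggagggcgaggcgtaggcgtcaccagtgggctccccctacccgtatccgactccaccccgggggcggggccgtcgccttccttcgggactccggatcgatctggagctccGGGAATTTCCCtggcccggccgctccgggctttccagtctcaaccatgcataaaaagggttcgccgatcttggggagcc
CXCL10: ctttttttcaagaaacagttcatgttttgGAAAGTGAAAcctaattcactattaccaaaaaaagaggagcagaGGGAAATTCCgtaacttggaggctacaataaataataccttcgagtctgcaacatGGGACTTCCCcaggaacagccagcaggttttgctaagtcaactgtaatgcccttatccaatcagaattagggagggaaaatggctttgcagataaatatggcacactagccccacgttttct
The word GGGAATTTCC ended 70 bases before the start in CXCL1 and CXCL3 and 69 bases before it in CXCL2, with a match on the opposite strand that overlaps it and ends 1 base later. It occurred in 22 of the 10707 promoters (0.205%), 5 of them among the 21 chemokine promoters, namely CXCL1, CXCL2, CXCL3, CXCL5 and CXCL6. The word was read from the CXCL1 promoter, so the match there was fixed in advance. All 5 are related genes that lie close together on chr4, so their matches are not independent. These 5 genes did not share 1 response: CXCL1 rose 17.8-fold to 309 ± 25.2 CPM, CXCL2 10.4-fold to 65.8 ± 5.67 CPM, CXCL3 7.13-fold to 102 ± 4.81 CPM and CXCL6 1.81-fold to 2.27 ± 0.269 CPM, while CXCL5 was not called at 0.707 ± 0.245 CPM (log2 0.13 ± 0.38). The kB consensus was found in 6.01% of all promoters, in 10.3% of those of genes at least 2-fold higher and in 5.76% of those of genes at least 2-fold lower. Among chemokine promoters it was in 9 of 21 (42.9%). The TATA box, TATAAA, was in 5.73%, 11.2% and 6.89% of the same 3 sets and in 10 of 21 chemokine promoters. The full palindromic glucocorticoid response element, searched with every base outside its spacer fixed, matched none of the 10707 windows. An exact match of this length is rare in windows of 250 bases, so this count cannot show whether the promoters hold sites for the receptor.

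The interferon-stimulated genes, effectors of the antiviral state, were higher in 53 of 59 tested members and lower in 1, with a median log2 fold change of 2.06. IFIT1 (chr10:89392623-89406487), which binds foreign RNA ends, stood at 1.59, 2.4, 2.49 and 3.17 CPM with vehicle and at 120, 113, 130 and 147 CPM with LPS+Dex, 52.3-fold higher (log2 5.71 ± 0.15), with 260 CPM in LPS. ISG15 (chr1:1013497-1014540), a ubiquitin-like modifier, rose 10.6-fold, from 32.9, 30.3, 20.3 and 26.5 CPM to 228, 274, 266 and 398 CPM, with 530 CPM in LPS. IFIT2 rose 91.6-fold to 97.4 ± 10.9 CPM, OASL 59.6-fold to 183 ± 18.6 CPM and MX1, a dynamin-like antiviral GTPase, 15.9-fold to 177 ± 33.2 CPM. IFNB1, the interferon beta gene itself, was at 0, 0, 0 and 0.0689 CPM with vehicle, at 2.12 ± 0.462 CPM with LPS+Dex and at 4.09 CPM with LPS. IRF7 and IRF1, transcription factors of the response, rose less, 2.84-fold and 3.05-fold. GBP3, a guanylate-binding protein, was the member that was lower (log2 -0.39 ± 0.13, adjusted p = 0.022, with overlapping libraries), a call lost without vehicle library 3 or 4 or LPS+Dex library 1 or 2 (log2 -0.33 to -0.32) and without vehicle libraries 3 and 4 (log2 -0.18), while its relatives GBP1, GBP2, GBP4 and GBP5 rose 4.37-, 11.9-, 12.1- and 22.4-fold. The IFIT and GBP genes are paralog families, where reads matching several members may be split.

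The windows of IFIT1 and ISG15 are printed to show the element that recurs in this list, with ISRE core matches in capitals, at chr10:89392373-89392622 (plus strand) and chr1:1013247-1013496 (plus strand).
IFIT1: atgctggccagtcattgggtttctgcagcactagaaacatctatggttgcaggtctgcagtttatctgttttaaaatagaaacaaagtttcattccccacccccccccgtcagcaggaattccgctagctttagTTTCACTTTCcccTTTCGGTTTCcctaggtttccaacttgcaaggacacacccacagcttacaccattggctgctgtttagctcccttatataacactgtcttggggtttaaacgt
ISG15: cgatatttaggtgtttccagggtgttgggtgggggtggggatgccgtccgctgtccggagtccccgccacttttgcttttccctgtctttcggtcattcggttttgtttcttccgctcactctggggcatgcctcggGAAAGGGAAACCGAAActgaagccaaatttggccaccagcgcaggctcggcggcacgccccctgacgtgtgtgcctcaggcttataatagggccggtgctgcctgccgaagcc
IFIT1 held 2 matches on the opposite strand, ending 107 and 94 bases before the start, and ISG15 held 2 overlapping matches ending 104 and 98 bases before it. The ISRE core was in 22 of the 47 interferon list promoters that were found (46.8%), in 2.47% of all promoters, in 5.96% of those of genes at least 2-fold higher and in 2.18% of those of genes at least 2-fold lower.

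Receptors for these signals moved in both directions. Of 40 tested cytokine and chemokine receptor genes 20 were higher and 12 lower (median 0.51). CX3CR1 (chr3:39263494-39292966), the fractalkine receptor, fell most among non-overlapping genes whose higher group averaged 5 CPM or more, from 7.62, 5.16, 15.7 and 14 CPM to 0.151, 0.0478, 0.217 and 0.49 CPM, 47.4-fold lower (log2 -5.57 ± 0.48, adjusted p = 2.7e-07), with 1.22 CPM in LPS. CCR1 fell 7.83-fold, and CSF1R, the receptor of the macrophage growth factor, 2.1-fold, from 1557 ± 282 to 740 ± 82.9 CPM. Higher were IL10RA, the ligand-binding chain for interleukin-10 (10.1-fold, to 602 ± 35.6 CPM), IL18RAP (18.2-fold), IL1R1 (5.08-fold) and the decoy receptor IL1R2 (3.93-fold, with 1.85 CPM in LPS and 6.72 CPM in LPS+Dex). LIFR was called higher on few reads, with 0, 1, 0 and 0 counts against 6, 9, 12 and 2.

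Receptors for bacterial products at the cell surface moved apart. Of 37 tested Toll-like receptor and signalling genes 16 were higher and 14 lower, with a median of 0.13. The median was -0.094 without vehicle libraries 1 and 2 and 0.388 without vehicle libraries 3 and 4. TLR4 (chr9:117704403-117724735), the LPS receptor, fell 2.27-fold, from 35.9, 27.7, 52.5 and 49.9 CPM to 20.5, 16, 18.9 and 17.8 CPM (log2 -1.19 ± 0.20, adjusted p = 0.00017), beside 65.7 CPM with LPS. TLR2 (chr4:153684280-153710637), the receptor of bacterial lipoproteins, rose 3.44-fold, from 484, 555, 458 and 404 CPM to 1666, 1643, 1597 and 1631 CPM (log2 1.78 ± 0.09), beside 514 CPM with LPS. CD14, the LPS co-receptor, fell 3.72-fold, its partner LY96 1.69-fold, and TLR1 and TLR6, which pair with TLR2, 4.27-fold and 4.37-fold. Inside the cell the adaptors MYD88 (2.02-fold) and TICAM1 (2.51-fold) and the ubiquitin ligase PELI1 (11.8-fold) were higher. IRAK3, the kinase-dead inhibitor of the pathway, rose 7.54-fold, from 10.6, 12.9, 11.8 and 11.2 CPM to 90.5, 87.1, 84.2 and 89.3 CPM, with 23.1 CPM in LPS. TLR3 fell 6.61-fold from a level of 0.709 ± 0.113 CPM.

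NF-kB subunits, inhibitors and survival targets were higher in 28 of 31 tested members and lower in 2, with a median log2 fold change of 1.89. NFKBIA (chr14:35401513-35404749), the inhibitor that holds NF-kB in the cytoplasm and is itself an NF-kB target, rose 7.44-fold, from 324, 343, 278 and 223 CPM to 2131, 2187, 2025 and 2343 CPM, with 1882 CPM in LPS. TNFAIP3, the ubiquitin-editing brake A20, rose 6.03-fold to 2137 ± 104 CPM, with 2041 CPM in LPS. TNFAIP2 rose 17.3-fold, from 123 ± 12.8 to 2125 ± 50.5 CPM, and TNFAIP6, which encodes the matrix-binding protein TSG-6, 20.4-fold. The subunit genes NFKB1 (5.12-fold) and RELB (2.86-fold) rose more than RELA (1.72-fold) by their estimates. BCL3, an atypical inhibitor of kB, was at 84.5 ± 16.7 and 84.1 ± 10.2 CPM (log2 -0.01 ± 0.15), with 236 CPM in LPS. OTULIN, a linear-ubiquitin protease, only just passed the threshold (log2 -0.42 ± 0.17, adjusted p = 0.049), with overlapping libraries, and missed it without any 1 of 9 libraries (vehicle 3 and 4, LPS 1, 3 and 4, and LPS+Dex 1 to 4, at log2 -0.47 to -0.28). Of 28 promoters found for this list, 9 (32.1%) held a kB consensus match, among them NFKBIA.

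Brakes on signalling moved in both directions. SOCS3 (28.1-fold, to 30.5 ± 1.77 CPM) and SOCS1 (9.34-fold, to 13.6 ± 2.9 CPM), which block cytokine receptor kinases, rose, as did DUSP2 (7.98-fold), while DUSP6, the ERK phosphatase, fell 2.23-fold, INPP5D, a lipid phosphatase, 3.41-fold and PTPN22 9.02-fold. Over the 33 tested genes of that list 15 were higher and 10 lower. ZC3H12A (chr1:37474580-37484377), the endonuclease Regnase-1 that cuts cytokine mRNAs, rose 6.03-fold, from 160, 167, 160 and 121 CPM to 936, 873, 959 and 895 CPM, with 654 CPM in LPS. ZFP36, the decay factor tristetraprolin, rose 2.36-fold, from 60.4, 62.1, 53 and 43.7 CPM to 114, 129, 123 and 151 CPM, with 79 CPM in LPS, while its paralog ZFP36L1 fell 2.24-fold. Over the 30 tested genes of cytokine mRNA decay 12 were higher and 5 lower, and with library total scaling 5 were higher and 9 lower. The share of them called, 56.7%, was near the 60.2% of all genes tested. Without vehicle libraries 1 and 2, 9 were lower, and without LPS+Dex library 3, 3 were.

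Among early response transcription factors 21 of 36 were higher and 9 lower (median 0.63). KLF2 rose 10.8-fold to 17.9 ± 0.434 CPM, KLF4 3.18-fold, JUN 2.62-fold and MYC 2.31-fold, from 295, 294, 256 and 268 CPM to 644, 667, 658 and 603 CPM. FOS, the partner of JUN in AP-1, was not called (log2 0.22 ± 0.28, adjusted p = 0.51), with 219, 220, 185 and 191 CPM in vehicle and 251, 261, 257 and 180 CPM in LPS+Dex. EGR2 fell 4.09-fold, from 88.5 ± 10.3 to 21.6 ± 2.12 CPM, beside 113 CPM with LPS, HES1 2.91-fold and EGR1 1.69-fold with overlapping libraries.

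Inducible enzymes of immune metabolism held several of the largest rises, but the list was divided. Of 31 tested members 13 were higher and 6 lower, with a median log2 fold change of 0.173, or 11 and 11 with library total scaling. The share called, 61.3%, was near the 60.2% of all genes tested. ACOD1 (chr13:76948511-76958638), which makes itaconate, rose 92.5-fold, from 0.126, 0.124, 0.29 and 0.207 CPM to 18.3, 17.3, 16.9 and 22.2 CPM, with 128 CPM in LPS. IDO1, the first enzyme of tryptophan breakdown to kynurenine, rose 128-fold, from 0.463 ± 0.0841 to 59.3 ± 9.02 CPM, with 145 CPM in LPS, and its neighbour IDO2 went from 1, 1, 2 and 0 counts to 6.04 ± 0.839 CPM. TDO2, which catalyses the same step as IDO1, moved the other way, from 657, 733, 714 and 640 CPM to 174, 154, 156 and 145 CPM (log2 -2.12 ± 0.07). PTGS2, the inducible cyclooxygenase COX-2 and a classic target of glucocorticoid repression, was still 5.55-fold above rest, at 3.23, 3.76, 7.02 and 4.34 CPM with vehicle and 30.2, 23.5, 27.8 and 22.2 CPM with LPS+Dex, beside 237 CPM with LPS. PTGS1, the constitutive form, fell 1.53-fold, and the leukotriene genes ALOX5 and LTA4H 2.34-fold and 1.52-fold. In the inflammasome list 9 of 22 members were higher and 8 lower: the DNA sensor AIM2 rose 19.6-fold and NLRP3 2.99-fold, while NLRC4 fell 5.46-fold, the adaptor PYCARD 3.06-fold and NLRP12 7.93-fold, and CASP1 was not called (log2 -0.04 ± 0.10).

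Receptors with which macrophages clear particles and dead cells moved in both directions. Of 31 tested scavenger and efferocytosis receptors 15 were lower and 7 higher, with a median log2 fold change of -0.47. MERTK (chr2:111898607-112029561), which recognises apoptotic cells through bridging ligands, fell from 286, 264, 316 and 372 CPM to 51.7, 48.8, 52.3 and 47.4 CPM (log2 -2.63 ± 0.11), beside 33.3 CPM with LPS. TYRO3, of the same receptor family, rose 7.82-fold, from 2.56, 1.86, 3.33 and 3.34 CPM to 22.5, 19.3, 24.4 and 21.7 CPM, and AXL, the third member, was not called (log2 -0.47 ± 0.21, adjusted p = 0.073). The bridging protein gene MFGE8 rose 6.84-fold to 91.7 ± 7.08 CPM, with 15.7 CPM in LPS. CD36, a receptor for oxidised lipoprotein, fell 2.16-fold, HAVCR2 (TIM-3) 5.78-fold and MSR1 2.04-fold. CD163, the haemoglobin scavenger used as a marker of glucocorticoid-treated macrophages, was 1.24-fold higher, from 81.7, 84.6, 107 and 102 CPM to 119, 108, 124 and 115 CPM (adjusted p = 0.041), beside 45 CPM with LPS. Its call was lost with upper-quartile scaling (log2 0.195), with library total scaling (log2 0.095), without vehicle library 1 or 2 or LPS+Dex library 1, 3 or 4 (log2 0.25 to 0.32), and without vehicle libraries 1 and 2 (log2 0.16).

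Complement and Fc receptor genes were divided, with 7 of 21 complement genes higher and 7 lower and 2 of 11 Fc receptor list genes higher and 5 lower. The shares called, 66.7% and 63.6%, were near the 60.2% of all genes tested. Of the Fc receptor list 1 gene was higher without vehicle library 1 or 3 or LPS+Dex library 2 or 4. C1QB, a chain of the initiator of classical complement, had 0, 0, 1 and 1 counts with vehicle and a mean of 5.08 ± 1.12 CPM with LPS+Dex, beside 0.297 CPM with LPS, and C1QC rose 6.25-fold to 1.66 ± 0.278 CPM. Of 28 tested costimulation and checkpoint genes 15 were higher and 11 lower, with a median log2 fold change of 0.545. Among them SLAMF1 rose 26.4-fold, from 1.3 ± 0.358 to 35 ± 2.33 CPM, with 1.72 CPM in LPS. CD80 rose 12.6-fold and CD40 5.64-fold, while CD86 was not called (log2 -0.17 ± 0.17, adjusted p = 0.4), with 6.91 CPM in LPS. Class I presentation was higher in 12 of 22 members and lower in 4, or 9 and 7 with library total scaling. The peptide transporter TAP1 rose 4-fold, to 618 ± 82.7 CPM, and NLRC5, the transactivator of class I genes, fell from 80.2 ± 5.27 to 26.8 ± 1.69 CPM (log2 -1.58 ± 0.10). Class II presentation was higher in 2 of 16 and lower in 5, a share called of 43.8%, or 1 and 9 with library total scaling. Without vehicle libraries 1 and 2, 2 class II genes were lower, and without vehicle libraries 3 and 4, 7 were.

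Of 18 tested genes of coagulation and plasminogen activation 13 were higher and 4 lower (median 0.79), or 2 lower without vehicle libraries 1 and 2. F3 (chr1:94529173-94541759), tissue factor, the trigger of coagulation, rose 33-fold, from 5.91, 7.39, 7.16 and 6.17 CPM to 223, 230, 221 and 206 CPM, beside 25.6 CPM with LPS. THBD, thrombomodulin, an anticoagulant surface receptor, fell 6.08-fold, from 204, 169, 294 and 216 CPM to 38.7, 34.4, 41.2 and 30.7 CPM. SERPINE2, an inhibitor of thrombin and plasminogen activators, had the lowest p of all genes tested and rose 24.4-fold, from 58 ± 2.34 to 1417 ± 49.2 CPM, with 1502 CPM in LPS. PLAT, the tissue plasminogen activator, rose 30.2-fold to 17.9 ± 2.86 CPM, whereas PLAU, the urokinase gene, fell 2.11-fold.

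Of 35 tested TGF-beta and activin genes 16 were lower and 11 higher, or 18 and 5 with library total scaling. The number higher was 7 without vehicle library 1 or 2 or LPS+Dex library 1 or 3, and 5 without vehicle libraries 1 and 2. TGFB3 (chr14:75958097-75983011) stood at 28.4, 28.9, 30.4 and 33.8 CPM with vehicle and at 5.59, 5.12, 5.53 and 4.79 CPM with LPS+Dex (log2 -2.53 ± 0.10), beside 35 CPM with LPS. TGFB1 was not called (log2 -0.01 ± 0.12), and the receptor genes TGFBR2 and TGFBR1 fell (log2 -2.36 ± 0.36 and -1.60). CCN2, the connective tissue growth factor gene and a known glucocorticoid and TGF-beta target, rose from 0.419, 0.454, 0.609 and 0.586 CPM to 194, 183, 179 and 175 CPM (log2 8.42 ± 0.20), with 22.4 CPM in LPS.

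Regulators of G protein signalling were lower in 12 of 20 members and higher in 3. RGS14 fell 13.3-fold, from 61.9, 62.8, 54.6 and 57.7 CPM to 4.53, 4.92, 3.69 and 4.63 CPM, with 3.29 CPM in LPS. Adenosine receptors moved apart, with ADORA2A, the receptor that raises cyclic AMP in leukocytes, 14.7-fold higher (14 ± 1.05 to 206 ± 13.5 CPM) and ADORA3 4.17-fold lower (14.6 ± 1.48 to 3.48 ± 0.293 CPM, with 0.619 CPM in LPS).

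Transcription factors of the myeloid lineage were lower in 17 of 33 members and higher in 9, or in 19 and 5 with library total scaling. CEBPA, needed for granulocyte and monocyte formation, fell 9.18-fold, from 65.9, 53.3, 76.4 and 57.7 CPM to 6.75, 7.6, 6.78 and 6.43 CPM, and its relative CEBPE 13.5-fold, while CEBPD and CEBPB (3.19-fold) rose. The transcription factor MAF fell 8.46-fold. SPI1, which encodes PU.1, was at 954 ± 139 and 966 ± 38.8 CPM (log2 0.02 ± 0.10, adjusted p = 0.88). Its sign followed the vehicle libraries used, at 0.21 without vehicle libraries 1 and 2, where it was called, and -0.16 without 3 and 4. Of 28 tested nuclear receptors 13 were higher and 9 lower (median 0.349), or 8 and 10 with library total scaling. RARG, a retinoic acid receptor, fell 14.9-fold, from 42.4 ± 3.01 to 2.85 ± 0.511 CPM, and its dimer partner RXRA 5.51-fold, while NR5A2 rose 9.39-fold to 9.58 ± 1.61 CPM.

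In iron and redox genes, HMOX1 (chr22:35381096-35394207), haem oxygenase-1, fell 5.37-fold, from 448, 367, 343 and 341 CPM to 72.9, 70.7, 71.2 and 64 CPM (log2 -2.43 ± 0.09), beside 219 CPM with LPS. BLVRA, which acts on the next product of haem breakdown, rose 6.06-fold to 58 ± 7.39 CPM. The iron list was divided, with 8 of 24 higher and 10 lower, and the NRF2 and glutathione list was higher in 17 of 31 and lower in 3, or in 9 and 7 with library total scaling. In lipid handling ANGPTL4, an inhibitor of lipoprotein lipase, rose 32.5-fold, from 2.37 ± 0.545 to 76.6 ± 9.08 CPM, with 12.1 CPM in LPS. NCEH1, a cholesterol ester hydrolase, fell 5.62-fold. LPL, the lipase itself, was at 157, 157, 276 and 290 CPM with vehicle, 82.3 CPM with LPS and 614, 485, 553 and 446 CPM with LPS+Dex, and the desaturase genes FADS1 and FADS2 rose 4.62-fold and 3.29-fold.

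Of 44 tested cell cycle and mitosis genes 29 fell and 5 rose, with a median log2 fold change of -0.76, and of 44 DNA replication genes 25 fell and 2 rose, with a median of -0.42. AURKA, a mitotic kinase, fell 4.7-fold, from 21.6, 19.1, 21.6 and 20.3 CPM to 4.88, 4.69, 4.01 and 3.98 CPM, with 4.88 CPM in LPS. CENPF fell 3.02-fold, MKI67 2.46-fold and the helicase subunit MCM5 1.8-fold, while CCNE2, cyclin E2, rose 2.03-fold. The survival list was higher in 21 of 35 members and lower in 10, with BIRC3 (11-fold) and the BH3-only gene PMAIP1 (14.8-fold) at its upper end and BMF (2.56-fold lower) at its lower end.

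Some of the largest or most precise differences lay in genes of other functions. MFSD2A (chr1:39955145-39969956), a transporter of lysophosphatidylcholine-bound fatty acids, rose 14.2-fold, from 558, 586, 527 and 496 CPM to 7915, 7522, 7439 and 7969 CPM, beside 5311 CPM with LPS. All 4 LPS+Dex libraries lay above the LPS mean. PKP2, a desmosome protein, went from 0.0481 ± 0.0488 to 8.75 ± 2.08 CPM, with 0.505 CPM in LPS. Among the falls, EEPD1 (chr7:36153254-36301538) went from 134, 134, 144 and 138 CPM to 9.52, 9.85, 10 and 10.7 CPM (log2 -3.78 ± 0.09), with 21 CPM in LPS. CASS4, a scaffold protein of focal adhesions, fell 24-fold from 54.6 ± 11.3 to 2.28 ± 0.381 CPM, with 10.7 CPM in LPS. DOCK10, a guanine nucleotide exchange factor, fell 4.43-fold from a high level, 1217 ± 72.3 CPM, and SPNS2, a sphingosine-1-phosphate transporter, 7.1-fold from 61.5 ± 4.3 CPM. In these 6 genes the vehicle and LPS+Dex libraries did not overlap, as in 52.4% of all genes tested. PKP2, EEPD1 and CASS4 are among the largest rises and falls, which were picked from genes without overlap, so there it was fixed in advance. SEMA3G, PRAM1, GPRIN3, MTUS1 and EFR3B fell 13.7- to 18.5-fold.

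**Figure D4:**
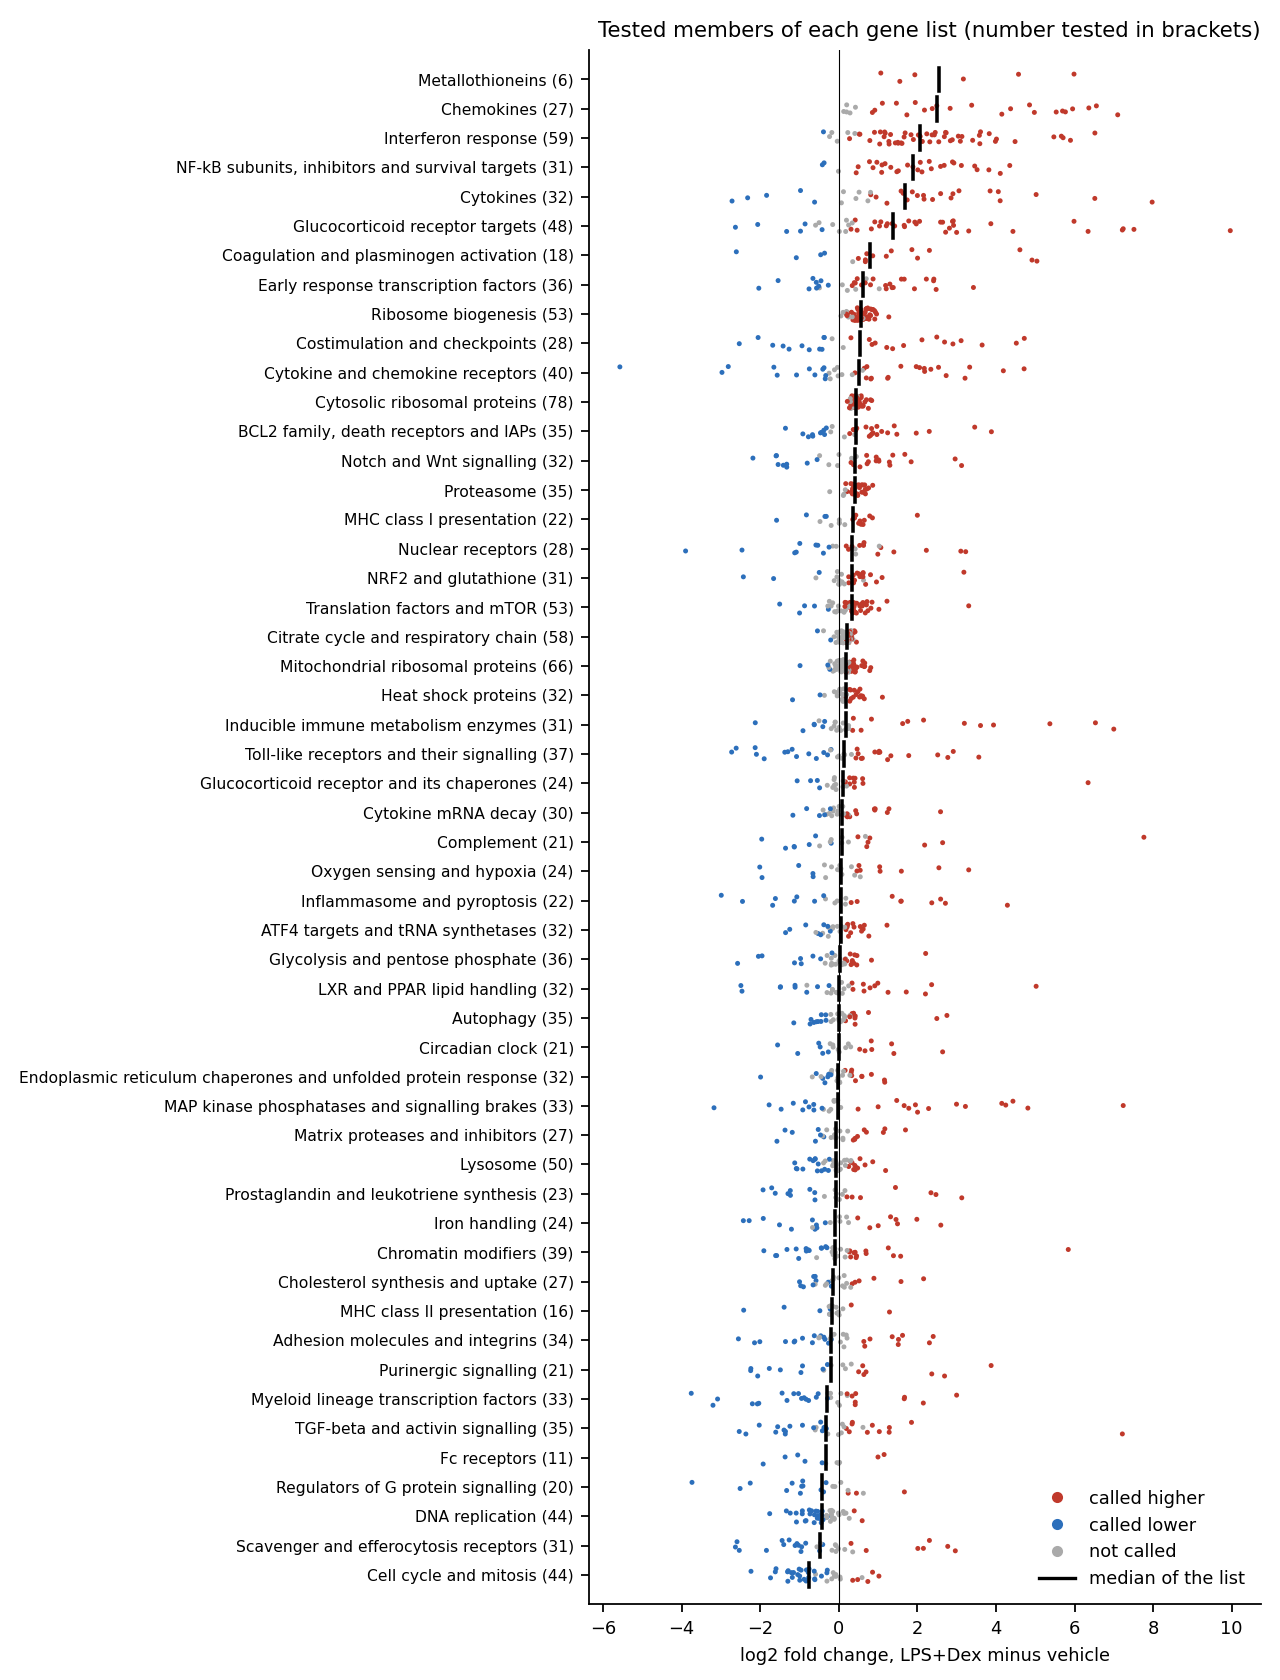
Log2 fold change of LPS+Dex over vehicle for the members of 52 gene lists, 1 row a list and 1 point a gene, with the median of each list marked and lists ordered by median. Metallothioneins, chemokines, interferon response, NF-kB genes and cytokines have the highest medians, from 2.55 to 1.69, and cell cycle and mitosis the lowest, at -0.76.

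Genes of protein synthesis and degradation showed small, broad rises whose extent depended on scaling and on the vehicle libraries. Ribosome biogenesis factors were higher in 46 of 53 members and lower in none (median 0.58), led by NOP16 (2.42-fold), and 38 were higher when scaled to the library total. Proteasome genes were higher in 31 of 35 and lower in none (median 0.41), for example PSMD12 (log2 0.47 ± 0.06), and with library total scaling 17 were higher and 1 lower. Cytosolic ribosomal protein genes were higher in 69 of 78 and lower in none, with a median of 0.44, and no member reached a 2-fold difference. RPS2 was at 262, 273, 172 and 194 CPM with vehicle and at 287, 325, 282 and 341 CPM with LPS+Dex (log2 0.46 ± 0.14, adjusted p = 0.011). Without vehicle libraries 1 and 2, 76 ribosomal protein genes were higher (median 0.74). Without libraries 3 and 4, 11 were (median 0.18), and with library total scaling 10 (median 0.22). Leaving out 1 library gave 43 without vehicle library 3, 37 without vehicle library 4 and 45 without LPS+Dex library 2. Citrate cycle and respiratory chain genes followed the same pattern, with 17 of 58 higher with all libraries, 40 without vehicle libraries 1 and 2, and 9 without 3 and 4. With library total scaling 2 were higher and 8 lower. The share of this list called with all libraries, 32.8%, was below the 60.2% of all genes tested. The number higher was 27 without vehicle library 2, and 10 or 11 without vehicle library 3 or 4 or LPS+Dex library 2 or 4.

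**Figure D5:**
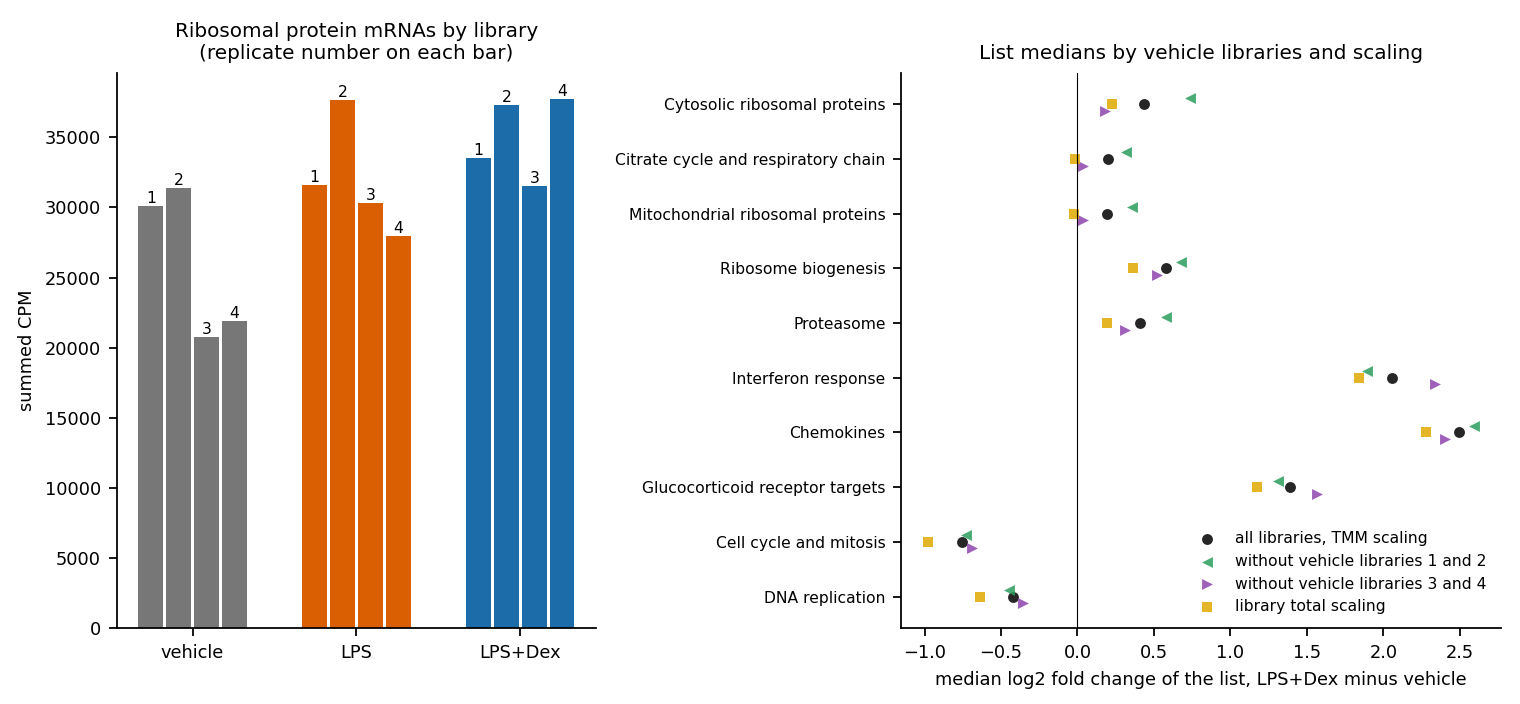
Summed level of cytosolic ribosomal protein mRNAs in each library in CPM (bars from 0) and the median log2 fold change of selected gene lists with all libraries, without vehicle libraries 1 and 2, without vehicle libraries 3 and 4, and with library total scaling. Vehicle libraries 3 and 4 are lowest, at 20800 and 21910 CPM, and the ribosomal protein median moves from 0.74 to 0.18 with the vehicle pair that is left out, while that of chemokines stays between 2.28 and 2.59.

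The counts of the large immune lists moved little with the vehicle libraries used. Without vehicle libraries 1 and 2 the chemokine list had 22 of 27 members higher, the NF-kB list 28 of 31, the interferon list 51 of 59, and the glucocorticoid target list 31 of 48. Without vehicle libraries 3 and 4 these were 22, 28, 54 and 36, and with library total scaling 22, 28, 50 and 31. Cell cycle and mitosis genes were lower in 26, 28 and 34 of 44 under the same 3 settings.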

How the data were processed

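RNA-seq libraries of THP-1 cells, 4 each for vehicle, LPS and LPS+Dex, were used from 1 table of gene counts. The tools named per the submitters' processing notes are the aligner STAR (2.7.10a), the counter featureCounts (2.0.1) and DESeq2 (1.26.0), and the build is GRCh38 (hg38). The values deposited by the authors are raw counts per gene, whole numbers with no scaling. Per the labels' protocols the libraries were stranded mRNA libraries. The sources used here do not give the strand setting of the counting or how reads that match several genes were treated.

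Genes were kept by edgeR's filterByExpr (minimum count 10, minimum total 15). All 12 RNA libraries were fitted in 1 model with a term per group and no replicate block, with TMM scaling, and LPS+Dex was contrasted with vehicle by edgeR's quasi-likelihood F test (edgeR 4.0.16, R 4.3.3). Benjamini-Hochberg adjustment ran over all genes tested, and a gene was called at an adjusted p under 0.05. CPM values are TMM-scaled and computed here from the counts, ± after CPM is the SD over libraries, and ± after a log2 fold change is its standard error. Alternatives used DESeq2 1.42.0, limma 3.58.1, other scalings, other filters and fewer libraries.

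The members and gene lists were chosen with earlier results of these data known. Genes were named by a rule. It took a panel of 45 genes, the 10 largest rises, the 10 largest falls, each list's extremes and the 5 lowest p-values in each direction. The rises and falls were taken from called genes averaging 5 CPM or more in the higher group, without overlap between vehicle and LPS+Dex libraries. The lowest p-values were taken from called genes of that level that differed at least 2-fold. Further cytokine, chemokine, interferon, glucocorticoid target and metallothionein genes were added. Other genes, among them IL10RA, IL18RAP, IL1R1, CCR1, TLR1, TLR6, LY96, NFKB1, BCL3, SOCS1, DUSP2, DUSP6, KLF4, JUN, NLRP3, NLRC4, MFGE8, CD36, C1QC, CD80, CD86, PLAT, PLAU, TGFBR2, CEBPA, MAF, RXRA, LPL, FADS1, CENPF, MKI67, BIRC3, PSMD12 and RPS2, were named after their values were seen. Same-numbered libraries did not pair: 2 of 4 correlations of their deviations were over 0.1, against 6 of 12 between other numbers. The deviations did share a division. Vehicle libraries 3 and 4 correlated positively with LPS+Dex libraries 1 and 3 (r = 0.364 to 0.562) and negatively with LPS+Dex libraries 2 and 4 (r = -0.599 to -0.272). For vehicle libraries 1 and 2 the signs were reversed. The source of this division was not tested. Promoter windows came from RefSeq (GRCh38.p14).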

Additional observations from a re-analysis of the deposited data

Results flagged for a closer look

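In 13 of 302 groups of 4 libraries examined, 1 library lay far from the other 3 of its group relative to the group's whole range, and chance alone gives about 1 in 20. Among the LPS+Dex libraries, library 2 was low in IL1A (2.869 CPM, others 3.903 to 4.085 CPM) and in HAVCR2 (16.35 CPM, others 19.57 to 19.89 CPM). LPS+Dex library 4 was low in TNFAIP3 (1982 CPM, others 2175 to 2212 CPM), ADORA3 (3.05 CPM, others 3.576 to 3.682 CPM) and FOS (179.6 CPM, others 251.2 to 261.1 CPM), and library 1 was high in TNFAIP6 (161 CPM, others 147.6 to 148.1 CPM). Among the vehicle libraries, library 2 was high in KLF2 (2.188 CPM, others 1.466 to 1.551 CPM). Vehicle library 2 was also the only vehicle library with counts of ZBTB16 (0.08258 CPM) and LIFR (0.04129 CPM). Vehicle library 1 was low in OASL (2.514 CPM, others 3.179 to 3.276 CPM), library 3 was low in CTSF (2.842 CPM, others 3.516 to 3.603 CPM), and library 4 was low in SPNS2 (55.12 CPM, others 62.96 to 64.49 CPM) and ZC3H12A (121.1 CPM, others 159.7 to 167 CPM).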

How the results depend on the processing

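Of 151 named genes, 142 kept their direction and their side of the threshold under every alternative setting in which they were checked, and 9 did not under at least 1. These settings include leaving out vehicle libraries 1 and 2 or vehicle libraries 3 and 4, which were chosen after seeing the data. Named genes were not checked against the minimum fold of 1.5. The number of genes called ranged from 7333 to 8195 with each library left out in turn, and was 8180 with DESeq2, 8010 with RLE scaling, 7975 with upper-quartile scaling, 8335 with library total scaling and 3006 against a minimum fold of 1.5. With library total scaling 2395 genes were higher instead of 3893, and CCL2 had a log2 fold change of -0.014 and SPI1 of -0.195. SPI1 was at -0.101 with upper-quartile scaling, and at -0.051 to 0.083 with each library left out in turn. NR3C1 was at -0.338 to 0.12 with each library left out. Chosen after seeing the data, leaving out vehicle libraries 3 and 4 gave 0.433 for NR3C1 and -0.158 for SPI1. SUCLG2, a citrate cycle gene, was no longer called under that setting (log2 -0.306). With the replicate number as a block, 8592 genes were called, 4230 of them higher, and 7967 kept their call and direction, and the labels give no shared culture behind the number. Fitted on the vehicle and LPS+Dex libraries alone, 7605 genes were called instead of 8021. Of genes near 1 CPM, CSF2 and LIF were not called and IL10 and IL12B were, and the part that depth plays in this was not tested.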

Other observations

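Several of the rises that no list holds were in genes with high or near-absent levels at rest. SMAP2, an Arf GTPase-activating protein, stood at 1238, 1008, 1495 and 1262 CPM with vehicle and 5309, 4817, 5448 and 4717 CPM with LPS+Dex, beside 1928 CPM with LPS. DENND3, a Rab exchange factor, went from 499 ± 28.5 to 2971 ± 171 CPM, beside 778 CPM with LPS. In both genes the LPS+Dex libraries were well above those of either other group. RP1L1, known from photoreceptors, went from 1.27 ± 0.295 to 57.2 ± 2.96 CPM with 1.13 CPM in LPS, and ARMC12 from 0.389 ± 0.184 to 47.2 ± 8.53 CPM with 0.625 CPM in LPS. These genes were chosen after their values were seen.

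A few markers of other cell types were expressed without some or most of their companions. TRAC, the constant part of the T cell receptor alpha chain, fell from 114 ± 11.2 to 17.1 ± 1.61 CPM, with 18.1 CPM in LPS, while CD3D, CD3E and CD3G stayed under 1 CPM in every library. COL1A1 rose 4.1-fold to 24.1 ± 1.99 CPM and PDGFRA 4.97-fold to 12.8 ± 2.8 CPM, while the fibroblast genes COL1A2, COL3A1, DCN and LUM stayed under 1 CPM. LAMP3, a marker of mature dendritic cells, was at 6.73 ± 1.64 CPM with vehicle, 276 CPM with LPS and 79.1 ± 9.32 CPM with LPS+Dex. The dendritic cell markers CLEC9A and XCR1 stayed under 1 CPM, while CD1C and FLT3 did not. CD1C was at 12 CPM with vehicle, 8.8 CPM with LPS and 6.77 CPM with LPS+Dex. FLT3 was at 15.9, 9.46 and 21.7 CPM in the same groups. KDM6A, an X-linked histone demethylase gene, had 1, 0, 1 and 0 counts in the vehicle libraries, 60, 55, 66 and 88 in the LPS libraries and 30, 19, 24 and 30 in the LPS+Dex libraries.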
